A study of Vitis vinifera with 204 samples.

Results

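Berries of Vitis vinifera cultivar Cabernet Sauvignon in early ripening were compared between the 2013 and the 2012 season, in 30 of the 204 RNA-seq libraries of the series. Libraries were chosen by the season and day in their labels, with earlier results of these data known. The 18 libraries of 2013 came from days 8, 15 and 22 after veraison and the 12 of 2012 from days 11 and 21. Each of these 5 days held 3 libraries of berries from vines whose crop load had been reduced by 50% and 3 from vines with a 75% reduction, so the comparison rests on 10 cells of season, day and thinning. Both thinning arms had equal weight. All groups share the vineyard, clone, rootstock and tissue (ground pericarp, seeds removed), and unthinned vines were not analysed here. A replicate was a pool of berries from several clusters of one vine block, so p-values reflect how far such pools differ within a single year. Day of harvest, weather, extraction and sequencing all change with the season, and their parts in a difference cannot be told apart. The titles, source names and days of all 18 libraries of 2013 give the 2013 season, while their separate year tag reads 2014; the 12 libraries of 2012 carry the tag 2012.

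Veraison is the point at which grapes soften and, in dark cultivars, turn colour. In the weeks that follow, berries import sucrose from the leaves and store it as hexoses in the vacuole, lose malic acid, expand and lay down anthocyanins in the skin. The growing season is known to shift both the pace of ripening and the level of many transcripts in field-grown grapes. The files do not pair their gene IDs with names, and the reference gene table held 0 of the 29971 IDs, so genes are described by ID, level and course, and the label pericarp was not checked against marker genes.

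The berries of the 2 seasons were at overlapping stages. Sugar in the 18 libraries of 2013 was 14.05 g/100 ml at the lowest, 17.4 at the median and 20.9 at the highest. In the 12 libraries of 2012 it was 12, 16.25 and 20.16 g/100 ml. The ranges overlap widely. The means were 17.7 g/100 ml ± 2.24 (SD, n = 18) and 16.1 ± 2.54 (n = 12), a difference of 1.65 (two-sided permutation test, p = 0.0717, or 0.143 after Benjamini-Hochberg adjustment over 4 sugar comparisons). On pool means per replicate number and arm, 6 against 6, the exact permutation p was 0.115. Day 8 of 2013 and day 11 of 2012 held 15.5 g/100 ml ± 1.29 (SD, n = 6) and 15.1 ± 1.98 (n = 6), and the exact permutation p was 0.662. Day 15 of 2013 held 17.4 ± 1.34 against 17.0 ± 2.83 on day 21 of 2012 (exact permutation p = 0.76). Day 22 of 2013, at 20.2 ± 0.59, was 3.15 g/100 ml above day 21 of 2012 (exact permutation p = 0.0238, adjusted p = 0.0952). The low values of day 21 of 2012 lay in the 50% arm, with 15.2 g/100 ml ± 2.47 (SD, n = 3) against 18.8 ± 2.03 (n = 3) in the 75% arm.

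A ripening score, by contrast, was slightly lower in 2013. It is the mean log2 value of the 200 genes raised most from green to ripening berries in 2014 minus that of the 200 lowered most. The score was 5.32 ± 0.34 (SD, n = 18) in 2013 and 5.43 ± 0.32 (n = 12) in 2012, a difference of -0.12, which became -0.28 when days 8 and 15 of 2013 alone were set against 2012. The SD of single libraries within cells was 0.18, and no test was made. Its day means were 4.94, 5.37 and 5.64 on days 8, 15 and 22 of 2013, and 5.17 and 5.70 on days 11 and 21 of 2012. On day 32 of 2012 it was 5.89 ± 0.08 (n = 6) and on day 29 of 2013 5.68 ± 0.09 (n = 6), so the score was little higher after this window.

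**Figure D1:**
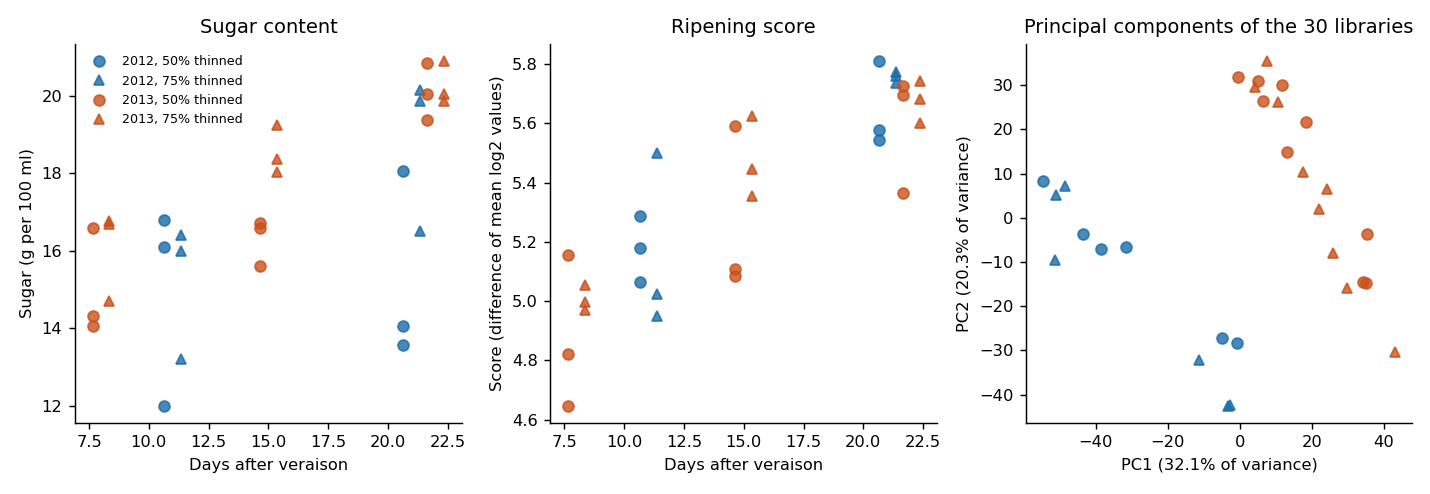
Sugar content in g per 100 ml (left) and ripening score (middle) against days after veraison, and the first against the second principal component (right), with 1 point per library, 2012 in blue and 2013 in orange, circles for 50% and triangles for 75% thinning. Sugar and score of the seasons overlap. On the first component, with 32.1% of the variance, the cell means of 2012 lie between -50.4 and -5.80 and those of 2013 between 3.64 and 34.9. Single libraries of the seasons nearly meet there, at -0.85 (2012, day 21, 50% arm, replicate 1) and -0.58 (2013, day 8, 50% arm, replicate 1). The cell means on this component are also higher on later days within each season.

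The values are RPKM, read density per length and library size. All 30 libraries hold the same form of values: at most 5 of 9114 steadily expressed genes were listed under 0.5 RPKM, whereas 83 other libraries of the series list 20 or more and are here called the second form. Library sums of RPKM ranged from 907730 to 999895 in 2013 and from 992442 to 1105140 in 2012. The 10 most abundant genes held a median of 21.4% of the sum in 2013 and 24.1% in 2012. Replicates lay closer together in 2013, where the median SD within a cell was 0.08 to 0.11 on the log2 scale, than in 2012, where it was 0.13 to 0.16. The part of these differences in the results below was not tested, apart from the scalings and weights given with them.

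On unscaled RPKM, most genes passed the adjusted p alone, and few also passed a 2-fold threshold. Of 17579 genes tested, 395 differed at least 2-fold with a limma adjusted p under 0.05, which is 2.25% of those tested. In 2013, 211 were higher (1.2% of those tested) and 184 lower (1.05%). Without the fold threshold 11459 genes passed (65.2%), 7567 higher (43%) and 3892 lower (22.1%). These counts without a fold threshold were made on unscaled RPKM alone, so the part of a common shift in scale was not tested. At 4-fold 51 passed (0.29%), 13 higher (0.074%) and 38 lower (0.216%). Higher genes had a median log2 difference of 1.22, lower genes of -1.36, and all genes tested of 0.08. The balance of directions turned with the scaling, to 168 higher and 221 lower with median ratio scaling and 151 and 215 with quantile normalization, which also brought the median over all genes to -0.01 and 0.01. A lower level in pericarp can come from fewer cells that express a gene or from less RNA per cell, which cannot be told apart. The ranges of the 2 seasons did not overlap for 76 of the 211 higher and 72 of the 184 lower genes, against 822 of all genes tested (4.68%). The called genes were chosen for a difference in these same libraries, which favours separate ranges.

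Days 11 and 21 of 2012 had equal weight in the comparison, but the counts depended on which of them was kept. Without day 21 of 2012, 814 genes were called, and without day 11 of 2012 352, of which 231 were among the 395. Single days compared with each other gave 637 genes for day 8 against day 11 (3.62% of those tested), 432 for day 15 against day 21 (2.46%) and 409 for day 22 against day 21 (2.33%). Within the 2012 season, day 21 against day 11 gave 510 genes (2.9%), 135 higher (0.768%) and 375 lower (2.13%) on day 21. Within 2013, day 15 against day 8 gave 71 (0.404%) and day 22 against day 8 gave 623 (3.54%).

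**Figure D2:**
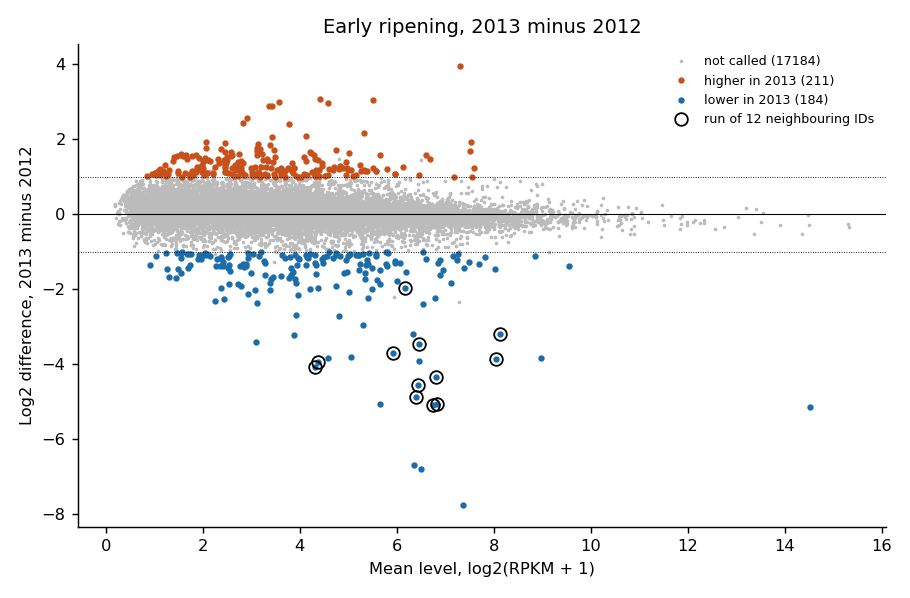
Log2 difference of 2013 minus 2012 (vertical) against the mean level as log2(RPKM + 1) (horizontal) for the 17579 genes tested, with genes higher in 2013 in orange, lower in blue and not called in grey; dotted lines mark 2-fold. The higher genes mostly sit between 1 and 2, while the lower genes reach below -4. The circled run of 12 neighbouring IDs lies between -5.09 and -1.98.

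Among genes with at least 1 RPKM in all 30 libraries, 116 were higher and 117 lower in 2013, out of 14129 such genes. The 2 with the largest difference in each direction were singled out after their values were seen, because the genes that lead the whole list are near 0 in one season. VIT_05s0020g04670 held 172 RPKM at the lowest, 248 at the median and 477 at the highest in 2013, and 27.5, 83.5 and 119 RPKM in 2012. Every library of 2013 was above every library of 2012. The log2 difference was 1.92 (SE 0.09, limma adjusted p = 2.36e-14), 1.86 in the 50% arm and 1.98 in the 75% arm. Its level was higher on the later days of both seasons, from a mean of 189 RPKM on day 8 to 428 on day 22 of 2013 and from 47.0 on day 11 to 110 on day 21 of 2012. On day 32 of 2012 it stood at 429 RPKM ± 53.3 (SD, n = 6), against 433 ± 57.5 on day 29 of 2013.

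VIT_16s0013g01080 held 12.5 to 22.4 RPKM in 2013, with a median of 15.4, and 1.97 to 6.34 in 2012, with a median of 2.65. The groups do not overlap. Its log2 difference was 2.06 (SE 0.11, limma adjusted p = 3.72e-13). At the next time point the direction was the opposite, with 12.4 RPKM on day 29 of 2013 and 27.9 on day 32 of 2012, which is -1.11 on the log2 scale (SE 0.15, limma adjusted p = 0.000542).

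VIT_12s0057g00140 held 1.15, 4.30 and 18.2 RPKM (lowest, median, highest) in 2013 and 83.2, 231 and 309 in 2012. VIT_12s0057g00090 held 1.03, 4.72 and 18.5 RPKM in 2013 and 112, 247 and 319 in 2012. Neither gene's groups overlap, and the log2 differences were -5.09 (SE 0.22) and -5.07 (SE 0.19), with limma adjusted p = 5.65e-15 and 9.38e-16. On day 0 the mean of neither gene was lower in 2013. VIT_12s0057g00140 had a mean of 110 RPKM in 2013 and 78.5 in 2012, and VIT_12s0057g00090 had 129 and 75.0. By day 8 of 2013 the mean of VIT_12s0057g00140 was 6.05 and on day 15 1.87, while on day 11 of 2012 it was 255.

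These IDs belong to a run of 12 tested IDs, from VIT_12s0057g00060 to VIT_12s0057g00190, that follow each other in the numbering and were all lower in 2013, a run noticed after the values were seen. The authors' numbering was taken as the order, and the sources used here do not say how reads common to near-identical genes were counted, so the 12 may not be independent. Their log2 differences lay between -5.09 and -1.98, with a median of -4.02. No library of 2013 reached the lowest library of 2012 in any of the 12. In 2012 the run had a median level of 208 RPKM on day 11, 127 on day 21 and 9.82 on day 32. In 2013 it was 99.5 RPKM on day 0, 8.64 on day 8, 3.49 on day 15, 10.8 on day 22 and 28.3 on day 29. In 2014, whose values have the second form, it was highest on day 8, at 87.5 RPKM. The highest day of a season for the run was therefore day 11 in 2012, day 0 in 2013 and day 8 in 2014. Only 4 other runs of 3 or more called IDs were found, each with 3 IDs, so 24 of the 395 called genes lay in such runs.

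The lower genes named by size from the whole list were listed at or near 0 in 2013. VIT_18s0041g00720 was listed at 0 in 16 of 18 libraries of 2013 and at 19.7 and 50.9 RPKM in the other two. In 2012 it held 169 RPKM at the lowest, 323 at the median and 440 at the highest. The same contrast stood outside early ripening: it held 294 RPKM on day 0 of 2012 and was listed at 0 in all 6 libraries of day 0 of 2013. The fitted log2 difference was -7.76 (SE 0.46, limma adjusted p = 1.87e-12), and its size depends on the pseudocount. With nothing between 0 and 19.7 RPKM and no read counts, these zeros may be failed estimates, and the size is not read as a difference in level. VIT_12s0034g01880 was listed at 0 in 10 libraries of 2013 and reached at most 3.39 RPKM. In 2012 it was higher on each later day, from 19.2 RPKM ± 11.7 (SD, n = 6) on day 0 to 108 ± 22.3 on day 11, 215 ± 53.0 on day 21 and 230 ± 31.0 on day 32. Its fitted log2 difference was -6.70 (SE 0.20, limma adjusted p = 4.36e-17). In 2013 its mean did not pass 1.20 RPKM on any day of the window, and its mean in days 8 to 21 of 2014 was 0.645. The groups of neither gene overlap.

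**Figure D3:**
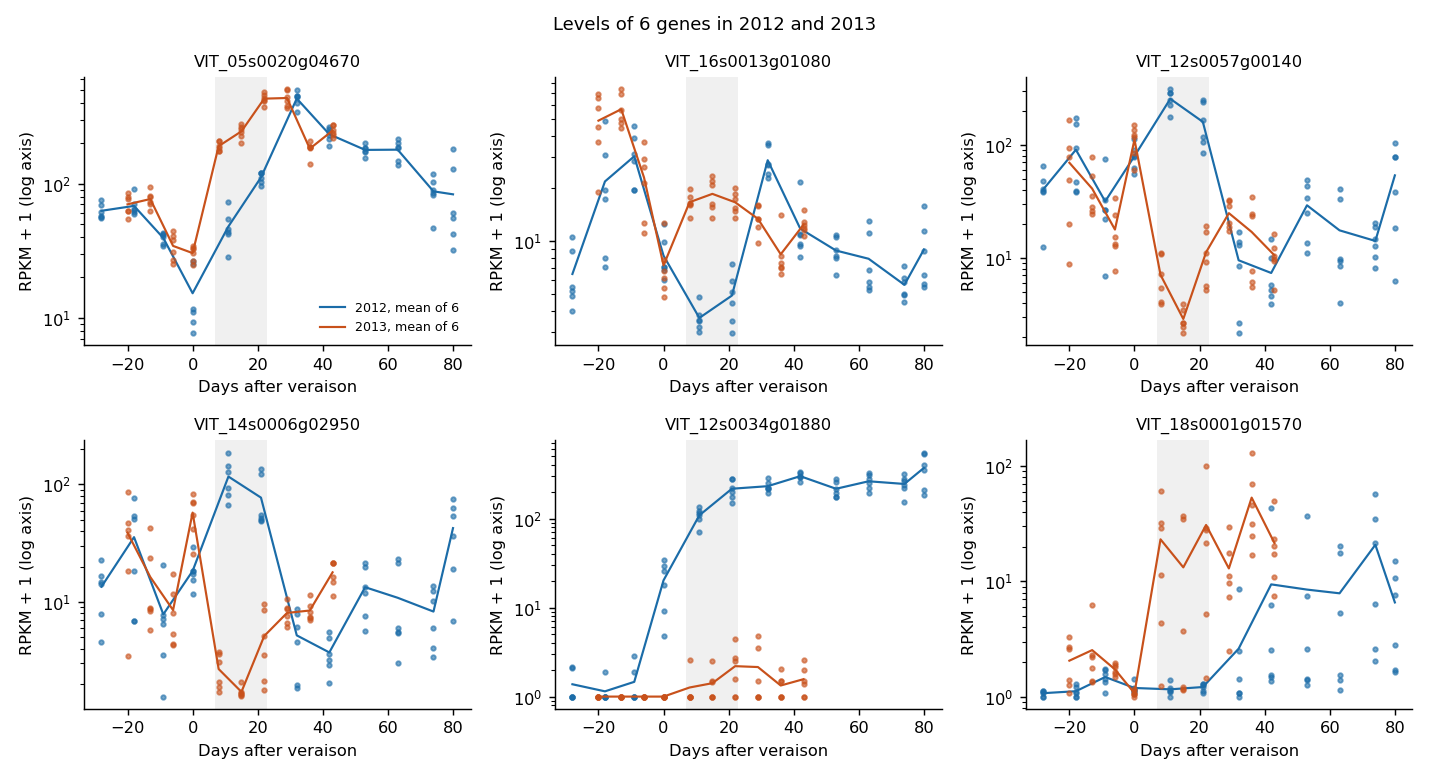
RPKM + 1 on a log axis against days after veraison for 6 genes, with 1 point per library and lines through the means of 6 libraries, 2012 in blue, 2013 in orange, and the early ripening window shaded. VIT_05s0020g04670 reached 429 RPKM on day 32 of 2012, close to its level on day 22 of 2013, VIT_12s0057g00140 and VIT_14s0006g02950 were highest on day 11 of 2012 and low from day 8 of 2013, VIT_12s0034g01880 stayed below 4 RPKM in 2013, and VIT_18s0001g01570 was scattered in 2013; libraries of 2013 on days -20 and -6 (1 each), 36 (3) and 43 (6) hold the second form of values.

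The higher genes named by size varied between replicates. VIT_07s0151g00640 held 0.27 RPKM at the lowest, 17.5 at the median and 215 at the highest in 2013, and 0.18, 0.43 and 1.46 in 2012. VIT_18s0001g01570 held 0.15, 15.4 and 98.8 RPKM in 2013 and 0, 0.16 and 0.40 in 2012. In both genes the lowest libraries of 2013 fell inside the 2012 range. The log2 differences were 3.09 (SE 0.59, limma adjusted p = 7.76e-05) and 3.00 (SE 0.55, limma adjusted p = 5.03e-05).

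This scatter was shared by a group of 35 higher genes that stayed under 1 RPKM in every library of 2012. The number of the 35 at 5 RPKM or more ranged from 0 to 32 among the libraries of 2013, with a median of 5.5, and was 0 in each library of 2012. It was 32 in replicate 1 of the 50% arm on day 22, 30 and 23 in replicates 1 and 2 of the 75% arm on day 8, and 0 in the third replicate of that cell. On day 15 it was 17, 18 and 0 in the replicates of the 50% arm and 0 in all 3 of the 75% arm. In 8 of 18 libraries it was at most 2. In 1 of the 35 the seasons did not overlap. The 35 were chosen by their low level in 2012, so their direction is fixed by the choice and their scatter is favoured by it; what the libraries with many of them share was not tested.

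A few calls rest on values of exactly 0 that can be failed estimates. VIT_05s0049g00520, one of the most abundant genes, was listed at 0 in 12 of 18 libraries of 2013 and 4 of 12 of 2012, and otherwise held 31354 to 52968 RPKM. On day 8 of 2013 the 3 libraries of the 50% arm held at least 44070.3 RPKM and the 3 of the 75% arm were listed at 0. Its call as lower in 2013 is therefore not read as a difference in level. In all, 14 genes tested were either at 0 or at a median of 100 RPKM or more within a season, and 1 of these was called higher and 3 lower. By a different sign, a 0 beside 2 replicates at 5 RPKM or more, 19 higher and 12 lower genes were affected, and 365 genes were called without all such genes. In the other direction, 4 of 11700 genes with a mean of at least 5 RPKM in 2012 were listed at 0 in all 18 libraries of 2013, and 1 of 12053 the reverse. Of the 4, 3 were called.

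The season difference was alike in sign in both thinning arms. All 211 higher genes and 181 of the 184 lower genes had the same sign at 50% and at 75% thinning, a sign that the choice on the mean of the arms favours. A test of the difference between the arms found 0 genes in limma (0% of those tested), with 1521 at an unadjusted p under 0.05 and a smallest adjusted p of 0.077. Median ratio scaling, quantile normalization and no filter on low values each gave 2 genes, and leaving out replicate 2 gave 4.

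The season difference changed along the window for 255 genes (1.45% of those tested), comparing day 22 with day 21 against day 8 with day 11 in limma. The change was upward in 155 genes (0.882%) and downward in 100 (0.569%). Without replicate 2 the balance turned, to 146 upward and 167 downward. Among the 184 genes lower in 2013, the difference shrank in 45 and grew in 2, and among the 211 higher it shrank in 8 and grew in 3. The called genes were chosen on these same libraries, and no such count was made over all genes, so the counts are not read as particular to them. VIT_12s0028g03560 was one that shrank. It held 1.82 to 3.29 RPKM on day 8 of 2013 against 16.2 to 34.7 on day 11 of 2012, without overlap, and 3.04 to 7.05 on day 22 against 2.77 to 9.63 on day 21, with overlap. The change was 2.58 (SE 0.28, limma adjusted p = 1.22e-06) on the log2 scale. VIT_03s0063g01380 turned, from 2.71 to 3.91 RPKM against 9.47 to 27.3 in the first pair to 11.5 to 16.8 against 5.10 to 9.06 in the second, a change of 2.62 (SE 0.20, limma adjusted p = 3.08e-08). Both pairs of ranges are separate, so the gene was lower and then higher in 2013.

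The 2 genes named for a downward change had lower levels on each later day of 2013. VIT_05s0062g00240 had a mean of 28.1 RPKM on day 8, 7.02 on day 15 and 4.30 on day 22 of 2013, while it stood at 2.25 and 2.07 on days 11 and 21 of 2012. Its season difference moved by -2.35 (SE 0.20, limma adjusted p = 8.59e-08). VIT_05s0062g00480 had means of 28.4, 21.9 and 12.0 RPKM over the 3 days of 2013 and 11.1 and 21.3 RPKM in 2012, a change of -2.01 (SE 0.50, limma adjusted p = 0.00376). Its second pair overlaps, with 4.50 to 21.8 RPKM on day 22 of 2013 and 3.35 to 30.1 on day 21 of 2012.

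On day 0, whose libraries did not enter the calls, the higher genes had a median log2 season difference of -0.07 and the lower genes 0.25. Of the 211 higher genes, 2 were at least 2-fold higher and 15 at least 2-fold lower in 2013 on that day, and of the 184 lower genes 19 were at least 2-fold lower and 35 higher. The season difference on day 0 was not computed over all genes tested, so these values are not read as particular to the called genes. Sugar on day 0 was 8.49 g/100 ml ± 1.38 (SD, n = 6) in 2013 and 7.57 ± 1.39 in 2012, and the ripening score 4.30 ± 0.15 and 3.53 ± 0.92.

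Many lower genes were at their seasonal peak on day 11 of 2012. Their level was highest on that day, out of 12 days, for 78 of 184 (42.4%), against 3.8% of all genes tested. In 2013 their highest day was day 0 for 66 (35.9%, against 6.79% of all genes). The higher genes were lowest on day 0 of 2013 in 94 of 211 (44.5%, against 16.9% of all genes). In 2012 they were highest on day 32 in 44 (20.9%, against 3.16%). All of these shares are favoured by the choice of the genes on days 8 to 22. By day 32 of 2012, 88 of the 211 higher genes had reached or passed their early mean of 2013, and 76 of the 184 lower genes were at theirs or below. On day 32 of 2012 the median distance from that mean was -0.24 for the higher and 0.26 for the lower genes on the log2 scale. No such count or distance was made over all genes, so whether this is particular to the called genes was not tested.

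**Figure D4:**
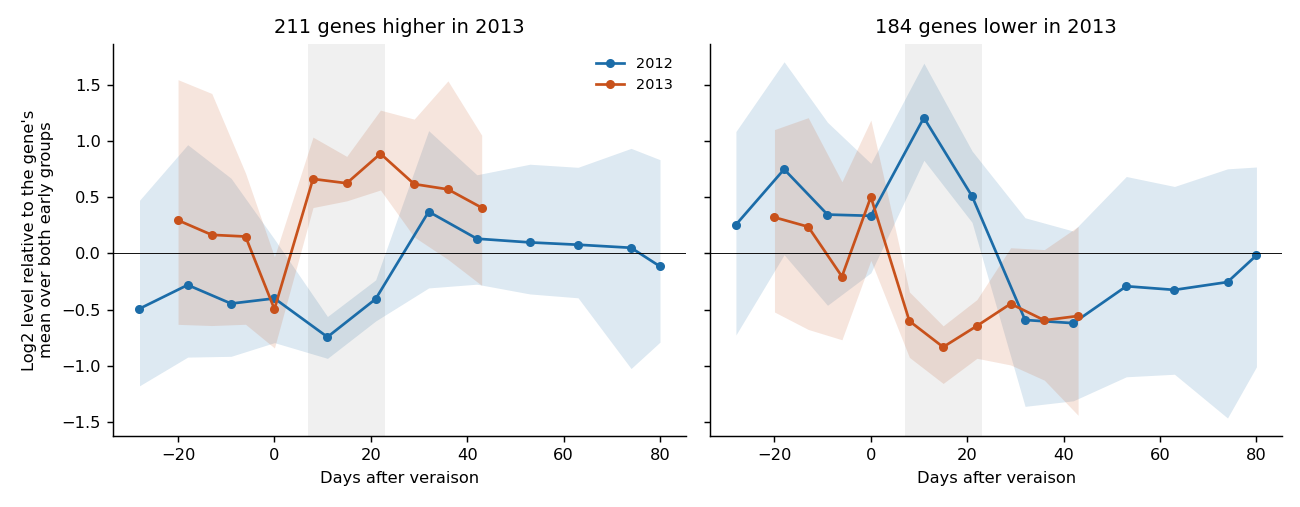
Median log2 level of the 211 genes higher (left) and the 184 lower (right) in 2013, each relative to the gene's mean over both early groups, against days after veraison; shaded bands span the quartiles, 2012 is blue, 2013 orange, and the grey strip is the window that chose the genes. On day 0 the medians are -0.50 and -0.40 (higher genes, 2013 and 2012) and 0.50 and 0.34 (lower genes), and by day 32 of 2012 they are 0.37 and -0.59; days 36 and 43 of 2013 hold libraries of the second form.

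At the next time point most of the called genes no longer differed as they had. On day 29 of 2013 against day 32 of 2012, 371 genes were called in limma (2.2% of those tested), 218 higher (1.29%) and 153 lower (0.906%). With median ratio scaling these were 164 and 180, and the median over all genes moved from 0.10 to -0.01. Of the early genes tested there, 29 of 201 higher and 27 of 175 lower were called again in the same direction, and 7 and 19 in the opposite one. Their median differences were 0.17 and 0.18. The test of the change, early ripening minus the later pair, contains the early difference that chose the genes, which favours passing it. It was passed in the early direction by 102 of the 211 higher and 129 of the 184 lower genes, against 773 of all genes tested (4.31%), 338 upward (1.89%) and 435 downward (2.43%); both differences share no library, and sugar on these days was 22.4 g/100 ml ± 1.57 (SD, n = 6) in 2013 and 20.4 ± 2.79 in 2012.

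Among the genes called at both time points, VIT_03s0017g01630 was listed at 0 in all 18 early libraries of 2013 and all 6 of day 29. In 2012 it ranged from 0.47 to 40.6 RPKM with a median of 12.99, and on day 32 from 3.16 to 27.4. It was also listed at 0 in all 6 libraries of day -20 and all 6 of day 0 of 2013. With no read counts, these zeros may be failed estimates, and the size of its difference is not read as a difference in level. VIT_13s0101g00230 held 0, 1.46 and 6.67 RPKM (lowest, median, highest) in 2013 and 4.94, 13.7 and 30.9 in 2012, and the groups overlap at their edges. Its log2 difference was -2.38 (SE 0.22, limma adjusted p = 1.9e-09) and then -3.03 (SE 0.24, limma adjusted p = 5.07e-05), with 5.41 RPKM on day 29 of 2013 and 43.5 on day 32 of 2012. VIT_00s1290g00010 and VIT_12s0028g01180 were higher at both, by 2.97 (SE 0.58, limma adjusted p = 0.000115) and 2.41 (SE 0.56, limma adjusted p = 0.000655) in early ripening, and by 1.52 (SE 0.53, limma adjusted p = 0.0469) and 1.11 (SE 0.25, limma adjusted p = 0.00737) later. On cell means as observations neither early call held (limma adjusted p = 0.058 and 0.076), and the second was also lost at 75% thinning alone (0.0861). They reached 455 and 214 RPKM in single libraries of 2013 with medians of 7.44 and 2.30, and at most 0.24 and 0.45 in 2012.

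Green berries also differed between the seasons. Between days -20 and -13 of 2013 and days -28 and -18 of 2012, with 23 libraries of the first form, 824 genes were called in limma (4.32% of those tested), 562 higher (2.95%) and 262 lower (1.37%) in 2013. The days differ between the seasons here, and the ripening score on them ranged from -4.01 to -3.43 in 2012 and from -3.76 to -2.92 in 2013 (day means). Of the early genes tested there, 50 of 191 higher and 16 of 179 lower were called in the same direction, and 1 and 15 in the opposite one. The sign was the same for 150 of the 191 higher and 91 of the 179 lower genes, against 53.2% of all genes tested at both stages. Their median differences in green berries were 0.42 and -0.01. Early ripening minus green again contains the early difference that chose the genes, which favours passing it, and was passed in the early direction by 84 of the 211 higher and 133 of the 184 lower genes, against 1227 of all genes tested (6.21%), 489 upward (2.47%) and 738 downward (3.73%). With median ratio scaling these were 375 and 910, and the median over all genes moved from 0.13 to 0.02.

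**Figure D5:**
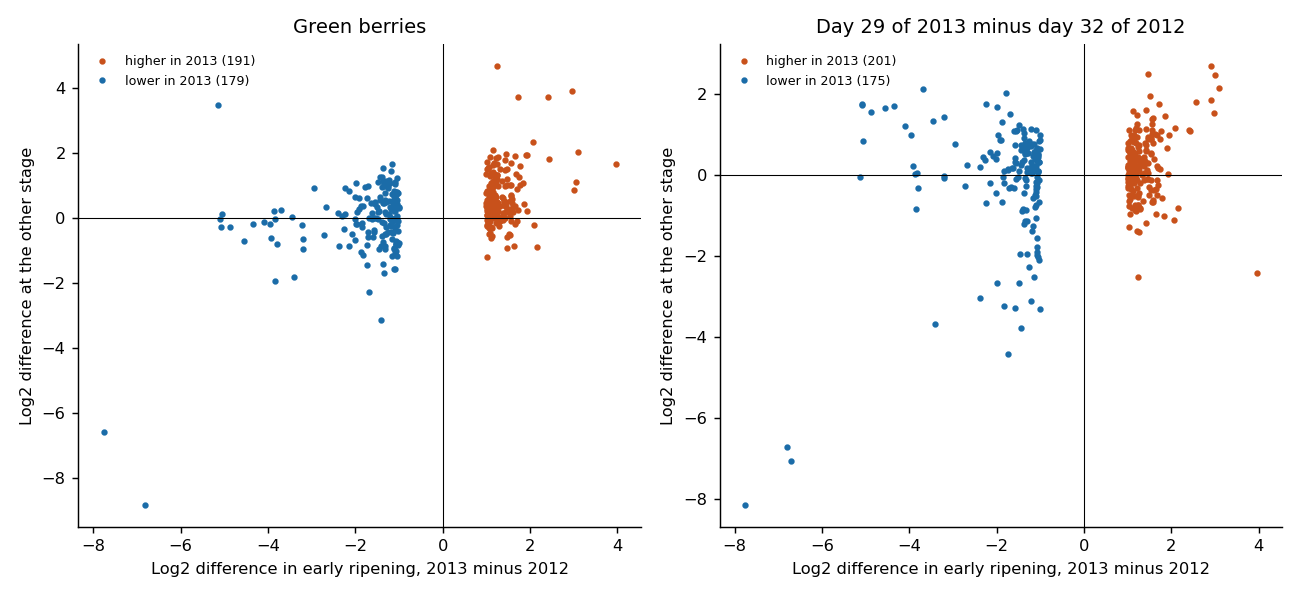
Log2 season difference (2013 minus 2012) in green berries (left) and of day 29 of 2013 minus day 32 of 2012 (right) against that of early ripening, for called genes tested at both stages, with genes higher in early ripening of 2013 in orange and lower in blue. Most of the genes lower in early ripening lie near 0 on the vertical axes, with medians of -0.01 and 0.18, apart from 2 genes on the left and 3 on the right below -6.

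Genes with the largest change from green berries to early ripening differed in their course. VIT_14s0006g02950 held 0.58 to 8.67 RPKM in early ripening of 2013, with a median of 1.09, and 47.4 to 185 in 2012, with a median of 86.7, without overlap. In green berries its season difference was 0.12 (SE 0.55), so the change was -5.17 (SE 0.56, limma adjusted p = 5.32e-10). On day 0 of 2013 it had a mean of 56.6 RPKM. VIT_12s0034g01880, described above, was not tested in green berries by itself for its low level, and its change was -6.45 (SE 0.27, limma adjusted p = 8.66e-21).

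In the 2 genes named for an upward change, the larger season difference was that of green berries. VIT_09s0002g03140 held 2.06 to 10.9 RPKM in early ripening of 2013 and 3.89 to 11.3 in 2012, overlapping almost wholly, while in green berries its difference was -3.00 (SE 0.19, limma adjusted p = 8.99e-10). Its mean was 208 RPKM on day -28 and 18.3 on day -18 of 2012 against 12.9 on day -20 and 3.84 on day -13 of 2013. Day -28 of 2012 has no counterpart day among the 2013 libraries. Its change was 2.83 (SE 0.21, limma adjusted p = 5.42e-14). VIT_03s0017g02260 held 5.50 to 22.9 RPKM in 2013 and 2.53 to 20.3 in 2012, and its difference was -2.02 in green berries (SE 0.21) and 0.57 in early ripening (SE 0.17), a change of 2.59 (SE 0.28, limma adjusted p = 4.32e-10).

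Groups of genes defined by their course in 2014, a season outside the comparison, held unequal shares of the called genes. Of 962 genes with a rise at onset in 2014, 3.74% were higher and 3.95% lower in 2013, and of 3059 that fell at onset 2.52% and 0.883%, against 1.2% and 1.05% of all genes. Genes that changed late in 2014 also held more than the background. Of 1411 that rose from early to late ripening, 2.76% were higher and 1.70% lower in 2013, and of 1675 that fell late 2.45% and 2.39%. The median season difference was 0.21 in genes that rose late, 0.13 in those that fell at onset, 0.03 in those that rose at onset, -0.02 in those that fell late and 0.08 over all genes. In the late-rising genes the median was 0.14 for day 8 against day 11 and 0.33 for day 22 against day 21. Over all genes these medians were 0.10 and 0.06. In the second pair the sugar of 2013 was further ahead, while the mean ripening score was 5.64 in 2013 and 5.70 in 2012. The part of stage in these medians was not tested. The 13282 genes with neither change at onset held 98 of the 211 higher and 110 of the 184 lower genes, 0.738% and 0.828% of their number, below the share of all genes.

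The called genes were also placed in early ripening of 2014, on days 8 to 21. On a scale from the 2012 mean at 0 to the 2013 mean at 1, the median position of 2014 was 0.55 for the higher and 0.64 for the lower genes that did not depend on the form of the values. Of 209 such higher genes 126 were nearer to 2013, as were 116 of 179 lower genes. Beyond 2013 lay 47 higher and 25 lower genes, and beyond 2012 lay 11 and 14. Choosing genes for a wide gap between 2012 and 2013 favours a place between them. All libraries of 2014 hold the second form, and its part in these positions was not tested beyond leaving out the 7 called genes found to depend on it.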

How the data were processed

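RNA was sequenced from berry pericarp with libraries that were not strand-specific, per the labels' protocols. The authors deposited RPKM values per gene ID. Per the submitters' processing notes, the tools were TopHat2 2.0.6 and Cufflinks 2.0.2. For genome build, annotation and settings the sources used here give nothing. Read depth is unknown, so no counting interval was computed, and overlapping or near-identical genes may share reads. Value columns were assigned to samples by title, with none left over.

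Genes that reached 1 RPKM in 3 or more libraries of a fit were tested as log2(RPKM + 1) in limma 3.58.1 (R 4.3.3), with an intensity trend, a mean for each cell and Benjamini-Hochberg adjustment over all genes tested. A call required an adjusted p under 0.05 and a 2-fold difference; for the arm comparison the adjusted p alone was used. Fold changes on this scale understate those of low genes. Green and later stages were compared with early ripening in fits of all libraries concerned, and 1 green library of the second form (replicate 2 of the 75% arm, day -20 of 2013) was left out. Sugar came from the labels and was tested by two-sided permutation (100000 resamples, or exact; scipy 1.17.1).

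Genes were named as the first 2 by size in each direction, with the same sign in both arms and both day pairs, 5 RPKM or more in the higher group and no implausible 0. Those at 1 RPKM or more in all 30 libraries, and the genes at 0 or high, were added after seeing the data. The libraries, lists and rules were chosen with earlier results of these data known. Gene lists by function could not be applied, since the IDs have no names. The closest pair of libraries had a rank correlation across genes of 0.985, and 0 pairs were identical. The fits were tested on simulated data. Alternatives covered scaling, pseudocount, filter, weights, covariates, block, days and left-out libraries.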

Additional observations from a re-analysis of the deposited data

Results flagged for a closer look

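The season difference itself differed between stages for many genes, each tested as a difference of differences in limma. Between the late and the early day pair it differed for 255 genes. Between early ripening and the later pair of days 29 and 32 it differed for 773, and between early ripening and green berries for 1227.

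For the day pairs, the named genes moved by 2.62 (VIT_03s0063g01380), 2.58 (VIT_12s0028g03560), -2.35 (VIT_05s0062g00240) and -2.01 (VIT_05s0062g00480) on the log2 scale. Against green berries, the named genes moved by 2.83 (VIT_09s0002g03140), 2.59 (VIT_03s0017g02260), -6.45 (VIT_12s0034g01880) and -5.17 (VIT_14s0006g02950).

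No sample stood apart from the other 5 of its season and day in sugar, ripening score or the share of the 10 most abundant genes, in 15 groups of 6 tested with a Dixon limit of 0.625.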

How the results depend on the processing

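The early ripening count of 395 genes became 971 with a pseudocount of 0.1, 151 with 5, 637 for day 8 against day 11 alone, 814 without day 21 of 2012, 11459 with no fold threshold, 51 at 4-fold, and 233 among genes at 1 RPKM or more in every library, a restriction added after seeing the data. The 0.1 pseudocount gave 520 genes for the day pairs, 692 for days 29 and 32 and 2288 against green berries. The other alternatives gave 313 to 486 for early ripening, among them 364 with sugar as a covariate (315 shared), 412 on sugar-matched days (324 shared), 451 with the ripening score as a covariate, 385 with weights by season and 347 on cell means as observations. Sugar differed by 3.15 g/100 ml for day 22 against day 21 alone and by 0.414 on sugar-matched days (p = 0.638, permutation test). The ripening score differed by -0.28 on those days. The causes of these shifts were not tested, other than the pseudocount and thresholds, which act by construction.

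Leaving out a replicate number gave 358 to 459 genes for early ripening, 242 to 313 for the day pairs (146 upward and 167 downward without replicate 2), 299 to 359 for days 29 and 32, 1129 to 1377 against green berries, 0 to 4 for the thinning arms and sugar differences of 0.528 to 2.33. Leaving out single libraries gave 370 to 422 genes, at least 362 of them among the 395. The arm comparison gave 2 genes with median ratio scaling, 2 with quantile normalization and 2 without a filter.

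Replicate numbers did not pair the samples: deviations of same-numbered pools of the seasons correlated between -0.09 and 0.23, with 2 of 6 over 0.1. With the replicate number as a block, 394 genes were called in early ripening, 257 for the day pairs, 385 for days 29 and 32, 1225 against green berries and 1 for the arms.

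Of 376 values of the early ripening difference in 12 named genes under the alternatives, 373 kept their call, 0 turned and 3, given above for VIT_12s0028g01180 and VIT_00s1290g00010, lost it. The changes of genes named for the day pairs or against green berries were not followed gene by gene in this way. Unknown depth limits what can be said of genes near 0.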
